A study of Rattus norvegicus with 6 samples.

Results

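The interleukin-1 family and the inflammasome were examined as 10 named genes of the 30957 genes in the rat spinal cord gene table. The genes were taken by name, and all 10 were found. They were the cytokines Il1a, Il1b, Il18 and Il33, the receptor antagonist Il1rn, the receptor Il1r1, the sensor Nlrp3, the adaptor Pycard and the inflammatory caspases Casp1 and Casp4.

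Interleukin-1β and interleukin-18 are made as inactive precursors. A danger or microbial signal leads the sensor NLRP3 to assemble with the adaptor ASC, the product of Pycard, and this inflammasome activates caspase-1, which cuts both precursors. Caspase-4 and its rodent counterpart sense bacterial lipopolysaccharide in the cytosol and open the cell membrane through gasdermin D. In the spinal cord, interleukin-1β from glia is known for raising the excitability of dorsal horn neurons, and the pathway has long been studied in pain models. RNA levels report none of the protein cleavage steps.

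RNA was sequenced from the ipsilateral lumbar enlargement of female adult Wistar rats on day 14. The BCP (bone cancer pain) group, with 3 libraries, had received living Walker 256 cells, a rat mammary carcinoma line, in the marrow cavity of the left tibia. The sham group, also with 3 libraries, had received the same cells killed by heat, so that both groups carried an injected bone and tumor cell material. The meninges were removed, and the tissue was a mixture of all cord cells and the blood in its vessels. Each sample had 1 library, and the labels number the samples without naming the animals, so the p-values measure the spread between these samples.

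Gene counts summed to 11779485 to 15004290 in a library. The cord markers Gfap (astrocytes), Mbp (oligodendrocytes) and Snap25 (neurons) had at least 22580 counts in every library, as the tissue label requires. Libraries of a group differed by more than counting noise in every pair, with a chi-square of 3.61 to 6.33 per degree of freedom, and were counted as separate samples.

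Of the 10 genes, 9 passed edgeR's filter on low counts, and 8 of these were up-regulated in BCP rats at an adjusted p under 0.05 and a fold change over 2. Among all genes tested, 6.35% were up-regulated and 0.107% were down-regulated. Il1b passed the filter only through its BCP libraries, and of the 8 genes over it in every sham library 7 were up-regulated, against 4.45% of all genes over it in every sham library. None of the 9 genes was down-regulated by edgeR or by DESeq2, and none was lower at an unadjusted p under 0.05. The rises lay between 2.28-fold for Il1r1 and 7.16-fold for Il1b in mean CPM, counts relative to the TMM-scaled library size. Il33 was the gene tested that did not rise, and Il1a had too few counts to be tested. All 3 BCP libraries stood above all 3 sham libraries for 9 of the 10 genes, Il33 being the exception, against 21.7% of all genes tested, whereas 19.8% of all genes tested had the BCP libraries below.

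**Figure D1:**
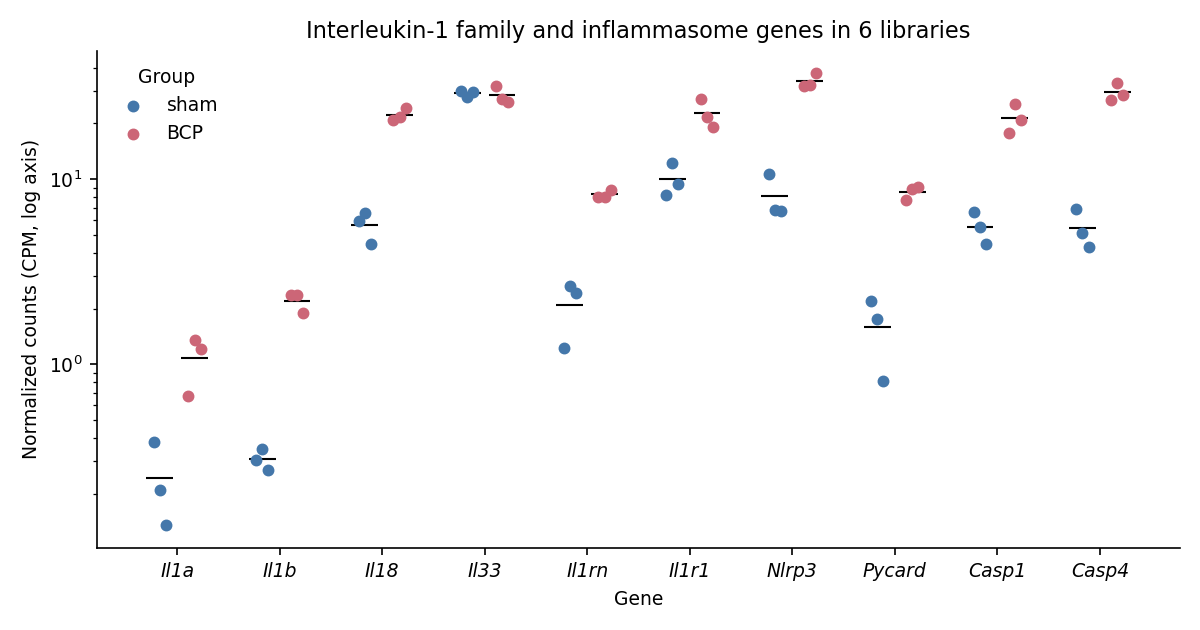
Normalized counts (CPM, log axis) of the 10 genes in the 3 sham (blue) and 3 BCP (red) libraries, each point a library and each black line a group mean. The BCP points lie above the sham points for every gene but Il33, whose means were 29.1 and 28.4 CPM.

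The promoters of the genes were read from RefSeq, since 8 of the genes rose in the same comparison. RefSeq's table (build GRCr8, not the Rnor_6.0 build of the counts) held 250 bases before and 50 bases after the start for 9 of the 10 genes, with 2 starts for Il33, and Casp4 was not matched. The promoters of Il1b, the gene with the largest fold change, of Il1r1, Nlrp3 and Casp1, which hold the rarer motifs, and of Il33 at its later start, for contrast, are shown 5′ to 3′ with motif matches in capitals.
Il1b (chr3:137036532-137036831, minus strand): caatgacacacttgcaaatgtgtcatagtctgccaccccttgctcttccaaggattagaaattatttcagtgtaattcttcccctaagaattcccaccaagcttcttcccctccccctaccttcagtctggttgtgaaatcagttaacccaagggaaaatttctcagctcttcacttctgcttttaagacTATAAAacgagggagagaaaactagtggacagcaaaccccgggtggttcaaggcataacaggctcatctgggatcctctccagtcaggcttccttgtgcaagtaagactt
Il1r1 (chr9:50034133-50034432, plus strand): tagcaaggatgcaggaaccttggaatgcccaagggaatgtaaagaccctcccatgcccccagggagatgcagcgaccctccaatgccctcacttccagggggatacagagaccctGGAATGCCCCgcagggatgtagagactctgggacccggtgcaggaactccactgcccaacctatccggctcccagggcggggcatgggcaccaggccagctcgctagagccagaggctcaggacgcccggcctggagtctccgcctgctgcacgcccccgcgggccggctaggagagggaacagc
Nlrp3 (chr10:44827848-44828147, plus strand): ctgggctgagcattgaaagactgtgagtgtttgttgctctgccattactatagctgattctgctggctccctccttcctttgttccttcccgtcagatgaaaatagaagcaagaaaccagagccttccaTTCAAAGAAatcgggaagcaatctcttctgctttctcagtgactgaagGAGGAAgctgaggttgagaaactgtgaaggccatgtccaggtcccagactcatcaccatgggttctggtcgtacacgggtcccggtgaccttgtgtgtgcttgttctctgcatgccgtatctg
Casp1 (chr8:10872580-10872879, plus strand): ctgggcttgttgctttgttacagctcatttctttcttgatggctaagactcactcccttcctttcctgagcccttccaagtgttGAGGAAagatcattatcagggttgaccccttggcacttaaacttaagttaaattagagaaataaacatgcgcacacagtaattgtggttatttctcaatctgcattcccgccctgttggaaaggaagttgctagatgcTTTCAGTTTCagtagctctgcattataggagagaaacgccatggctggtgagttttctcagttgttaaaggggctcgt
Il33 (chr1:237134696-237134995, plus strand): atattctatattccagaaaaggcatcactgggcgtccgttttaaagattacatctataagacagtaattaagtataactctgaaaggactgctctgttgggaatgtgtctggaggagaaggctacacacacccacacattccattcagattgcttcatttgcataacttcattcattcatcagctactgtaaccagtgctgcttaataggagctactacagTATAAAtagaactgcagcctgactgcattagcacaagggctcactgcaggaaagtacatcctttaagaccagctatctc

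Motifs were searched on both strands as TATAAA (the TATA box), GAGGAA (the ETS core bound by PU.1 of myeloid cells), TTCNNNGAA (the GAS site of STAT factors) and, by name, the core of the interferon-stimulated response element and the NF-kappa-B site. No matches overlapped. TATAAA was found in 4 of the 9 genes, Il1a, Il1b, Il33 and Il1rn. Of the 33469 rat promoters of the same length, counted by start, 14.2% held it on either strand. In Il1rn it lay only on the opposite strand, as TTTATA, and in Il33 only at the later start. In the capitals above, TATAAA begins 60 bases before the start of Il1b and 29 bases before that of Il33. GAGGAA was found in 3 genes, Il1a, Nlrp3 and Casp1, against 27.6% of all promoters. The other motifs were each found in 1 gene. The NF-kappa-B match lay in Il1r1 (4.18% of all promoters), the GAS match TTCAAAGAA in Nlrp3 (8.87%) and the interferon element, read as TTTCAGTTTC on the printed strand, in Casp1 (3.92%). The promoters of Il18 and Pycard, which also rose, held none of these letters. These matches describe the letters of the windows.

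Among the cytokines, Il1b (ENSRNOG00000004649, chr3:121876263-121882726 in Rnor_6.0), which encodes interleukin-1β, had 4, 5 and 4 counts in the sham libraries. It had 28, 33 and 25 counts in the BCP libraries. Every BCP library was therefore well above every sham library, although the gene stayed scarce in both groups. Mean CPM went from 0.308 ± 0.0396 (SD, n = 3) to 2.21 ± 0.271 (SD, n = 3), a log2 fold change of 2.80 (SE 0.39, edgeR quasi-likelihood test, adjusted p = 1.46e-05). Il1b passed the filter through its BCP libraries alone, none of the sham libraries reaching 0.737 CPM.

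Il1a (ENSRNOG00000004575, chr3:121825412-121836086) encodes interleukin-1α, which is active without cleavage by caspase-1 and signals through the same receptor. Its counts were 5, 3 and 2 in sham and 8, 19 and 16 in BCP. In CPM the sham libraries lay between 0.135 and 0.381 and the BCP libraries between 0.676 and 1.36, without overlap, and BCP replicate 1 was the nearest to the sham range. Only 2 BCP libraries and no sham library were over the filter, so that the gene was not tested. Fitted with no filter, edgeR gave a log2 fold change of 2.16 with an adjusted p of 0.00399.

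Il18 (ENSRNOG00000009848, chr8:54993859-55016299), the other cytokine that caspase-1 matures, was far more abundant. It was at 5.95, 6.57 and 4.46 CPM in sham and 20.9, 21.6 and 24.1 CPM in BCP. The groups did not overlap, and the lowest BCP library exceeded the highest sham library by more than the whole range of either group. The log2 fold change was 1.97 (SE 0.14, edgeR, adjusted p = 1.73e-09).

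Il33 (ENSRNOG00000016456, chr1:248132090-248147029) encodes an alarmin stored in the nucleus of glia and released from damaged cells. It was at 30.0, 27.7 and 29.7 CPM in sham and 31.9, 27.2 and 26.1 CPM in BCP. The groups overlapped, and BCP libraries were both the highest and the lowest of the 6. The log2 fold change was -0.04 with a 95% interval of -0.23 to 0.15 (edgeR, adjusted p = 0.794), an interval that does not reach a 2-fold change either way. Its sign was not stable, the estimate being 0.00 with library size only and 0.02 without BCP replicate 3.

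Il1rn (ENSRNOG00000005871, chr3:1452644-1468614) encodes the antagonist that occupies the interleukin-1 receptor without signaling. It was at 1.22, 2.65 and 2.43 CPM in sham and 8.03, 8.0 and 8.78 CPM in BCP. The 3 BCP libraries were close together and above a sham group in which replicate 1 was the lowest. The log2 fold change was 1.96 (SE 0.23, edgeR, adjusted p = 1.74e-06).

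The balance of Il1b and its antagonist was compared within each library as the log2 ratio of their counts, with 0.5 added to each. The ratio was -1.87, -2.81 and -3.02 in sham and -1.74, -1.75 and -2.19 in BCP. The ranges overlapped, since sham replicate 1 lay among the BCP libraries. The means were -2.57 ± 0.61 and -1.89 ± 0.26 (SD, n = 3 each), a difference of 0.67 with p = 0.2 in a two-sided exact permutation test, whose smallest possible p was 0.1. A shift of the balance was thus not shown, and 3 libraries a group with 4 or 5 counts of Il1b in sham give it little precision. Per length, in the authors' FPKM, Il1rn was above Il1b in every library, at 0.587 to 1.29 against 0.191 to 0.247 FPKM in sham and 3.95 to 4.39 against 1.38 to 1.72 FPKM in BCP.

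Il1r1 (ENSRNOG00000014504, chr9:46962288-47036670), the receptor that carries the signal of interleukin-1α and interleukin-1β, rose least. It was at 8.24, 12.2 and 9.46 CPM in sham and 27.1, 21.7 and 19.2 CPM in BCP. The groups did not overlap, and the log2 fold change was 1.18 with a 95% interval of 0.85 to 1.51 (edgeR, adjusted p = 3.16e-05). The lower bound is under a 2-fold change, and tested against a fold change of 2 itself the adjusted p was 0.81.

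Nlrp3 (ENSRNOG00000003170, chr10:45893018-45918254), the sensor that nucleates the best known inflammasome, was at 10.7, 6.84 and 6.69 CPM in sham. In BCP it was at 31.8, 32.1 and 37.3 CPM. Sham replicate 1 was the highest of its group and still far under the BCP libraries. The fitted log2 fold change was 2.07 (SE 0.15, edgeR, adjusted p = 1.57e-07).

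Pycard (ENSRNOG00000019675, chr1:199437832-199439210), whose product ASC bridges sensor and caspase, was at 2.21, 1.75 and 0.811 CPM in sham and 7.69, 8.86 and 9.09 CPM in BCP. Its sham libraries rested on 12 to 29 counts and differed more in relative terms than the BCP libraries did. The change on the log2 scale was 2.44 (SE 0.25, edgeR, adjusted p = 3.88e-07).

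Casp1 (ENSRNOG00000007372, chr8:2604962-2614631), the caspase that cuts both precursors, was at 6.63, 5.52 and 4.46 CPM in sham. It was at 17.8, 25.5 and 20.8 CPM in BCP, with no overlap and with replicate 2 the highest, a log2 fold change of 1.96 (SE 0.16, edgeR, adjusted p = 4.09e-08).

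Casp4 (ENSRNOG00000033697, chr8:2635851-2651652), its neighbor on chromosome 8 and the caspase of the noncanonical inflammasome, had the smallest p-value of the 10 genes. It was at 6.94, 5.10 and 4.32 CPM in sham and 26.8, 33.2 and 28.4 CPM in BCP. The order of the libraries within each group was that of Casp1. The log2 fold change was 2.44 (SE 0.15, edgeR, adjusted p = 4.92e-10). Casp1, Casp4 and Casp12 are similar in sequence, and how reads with several locations were counted is not given in the sources used here, so reads could be shared among them.

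**Figure D2:**
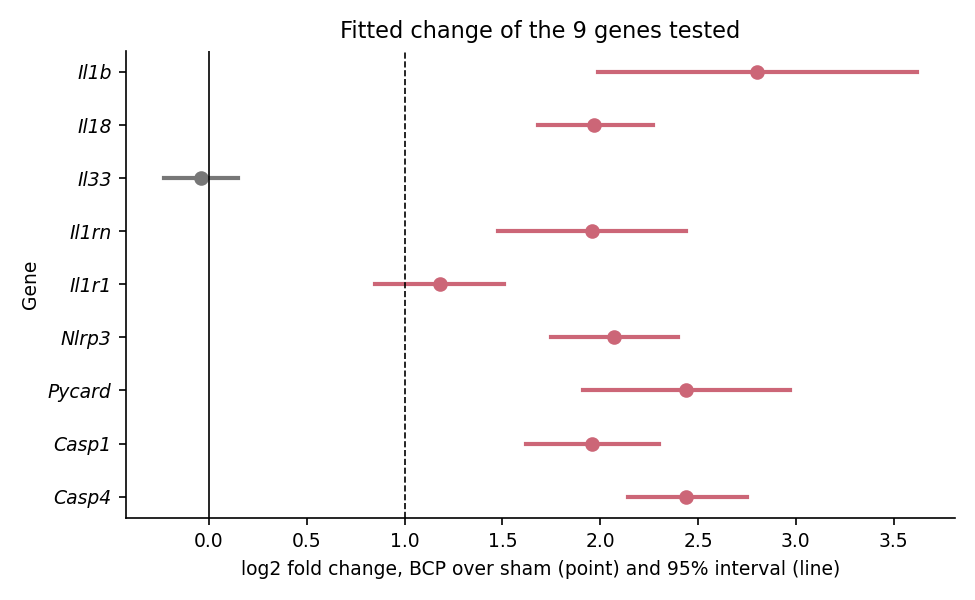
Fitted log2 fold change (point, BCP over sham) and 95% interval (line) of the 9 genes tested with edgeR, up-regulated genes in red and Il33 in gray, with the dashed line at a 2-fold change. The intervals of 7 genes lie wholly above 1, that of Il1r1 (0.85 to 1.51) crosses it and that of Il33 (-0.23 to 0.15) lies around 0.

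Levels were compared between genes only per length, as the authors' FPKM. In sham rats Il33 stood alone at the top, at 11.2 to 12 FPKM, followed by Il18, Casp4 and Casp1 at means of 5.53, 4.39 and 3.56 FPKM. Il18 overlapped Casp4 and Casp4 overlapped Casp1, so that these neighbors did not differ beyond their spread. Il1r1, Pycard and Nlrp3 came next at means of 1.97, 1.69 and 1.63 FPKM, again with overlapping ranges. Il1rn, Il1b and Il1a were the lowest at 1.02, 0.217 and 0.135 FPKM, and Il1b overlapped Il1a. The range of Il1rn (0.587 to 1.29 FPKM) also overlapped that of Pycard (0.863 to 2.34 FPKM).

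In BCP rats the order was different at the top. Casp4 and Il18 led at means of 24.4 ± 2.89 and 22.3 ± 1.83 FPKM (SD, n = 3 each), with overlapping ranges. Casp1 (14.1 FPKM) and Il33 (11.8 FPKM) followed, also overlapping, and then Pycard (9.35 FPKM) and Nlrp3 (7.02 FPKM), which did not overlap. Il1r1 and Il1rn overlapped at 4.60 and 4.11 FPKM, and Il1b (1.60 FPKM) and Il1a (0.623 FPKM) remained the lowest, without overlap.

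Within the sham group, replicate 3 was the lowest sham library for 7 of the 10 genes and the highest for none. In the BCP group replicate 1 was the lowest for 6 of the 10 genes. The mean log2 CPM of the microglia markers, described next, was lowest in sham replicate 3 and in BCP replicate 2. These tallies are descriptions and were not tested.

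Since the tissue was bulk cord, more cells of a type and more RNA per cell cannot be told apart. Of 17 microglia markers found, 16 were tested and 9 were up-regulated, among them Aif1, Csf1r and the complement genes C1qa, C1qb and C1qc, with a median log2 fold change of 1.28. Their summed CPM was 434 to 542 in sham and 1195 to 1456 in BCP. The microglia genes Tmem119, Trem2, Gpr34 and Olfml3 did not pass the test, with log2 fold changes of 0.19, 0.52, 0.18 and -0.13, and Siglech was at 0 in every library. Of the 7 markers tested of resting (homeostatic) microglia 2 were up-regulated, Cx3cr1 and P2ry13, with a median of 0.43.

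T cell markers rose as well, with 10 of 10 tested up-regulated, 2 of which were over the filter in every sham library. Their summed CPM was 7.77 to 8.60 in sham and 62.7 to 75.4 in BCP. Most of the sham sum came from Cd4, at 4.42, 5.66 and 5.2 CPM, and whether its RNA came from T cells was not tested. Cd4 had 58, 81 and 77 counts in sham and 303, 287 and 260 in BCP. Cd3d was at 0 in all sham libraries and at 11, 16 and 15 counts in the BCP libraries. Neutrophil markers had a summed CPM of 8.98 to 10.2 in sham and 32.8 to 35.2 in BCP, most of it from Csf3r, which microglia also express. Of 12 neutrophil markers 2 were tested and both were up-regulated, 1 of them over the filter in every sham library. S100a8 had 1, 0 and 0 counts in sham and 23, 15 and 10 in BCP, while Ltf was at 0 throughout. Of 7 monocyte and macrophage markers tested 2 were up-regulated, among them Plac8, and 1 of the 2 was over the filter in every sham library. The monocyte receptor Ccr2 had 0 counts in every sham library and 1 in every BCP library.

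The summed CPM of the red blood cell markers was 177 to 183 in sham and 306 to 470 in BCP, with 3 of 4 up-regulated. None of the astrocyte, oligodendrocyte, neuron, endothelial, meningeal, nerve root or epithelial markers tested was called by edgeR or DESeq2. Some differed in edgeR at an adjusted p under 0.05 but by less than 2-fold. All 8 oligodendrocyte, 4 of 8 neuron and 3 of 8 astrocyte markers were lower in this way. So were 2 of 6 nerve root and 1 of 6 meningeal markers, and 1 astrocyte marker was higher. Of all 14908 genes tested, 1805 were lower and 2352 higher at an adjusted p under 0.05 with no fold threshold. The oligodendrocyte sum went from 39381 to 44720 CPM in sham to 28327 to 31526 CPM in BCP. Of the markers of epithelial tumor cells Epcam had 0 to 8 counts in a library and Krt5 had 0. The part of these markers in the results on the 10 genes was not tested.

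Levels were therefore also expressed relative to the microglia markers of the same library, as log2 CPM minus the mean log2 CPM of the 16 markers tested, a mean that was 1.24 higher in BCP. On this scale 7 of the 9 genes tested had all BCP libraries above all sham libraries, against 3.36% of all genes tested. Because the reference rose, a gene that did not change falls on this scale, so that share is low by construction. The differences were 1.18 for Casp4, 1.18 for Pycard, 1.13 for Il1b, 0.83 for Nlrp3, 0.73 for Il1rn, 0.72 for Il18 and 0.68 for Casp1. The mean hides a wide spread, since the fitted log2 fold changes of the markers themselves ran from -0.13 (Olfml3) to 2.88 (C1qc), and Aif1 (2.40) and C1qb (2.43) were also well above the mean. Il1r1 overlapped, with a difference of -0.06. The BCP libraries of Il33, whose fitted log2 fold change was -0.04, were all below the sham libraries. Its difference of -1.28 was set mostly by the rise of the reference. The 7 homeostatic markers tested are all among the 16, and their mean rose less, by 0.55. With them as reference 7 of the 9 genes were above and 1 below, which is no independent check.

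**Figure D3:**
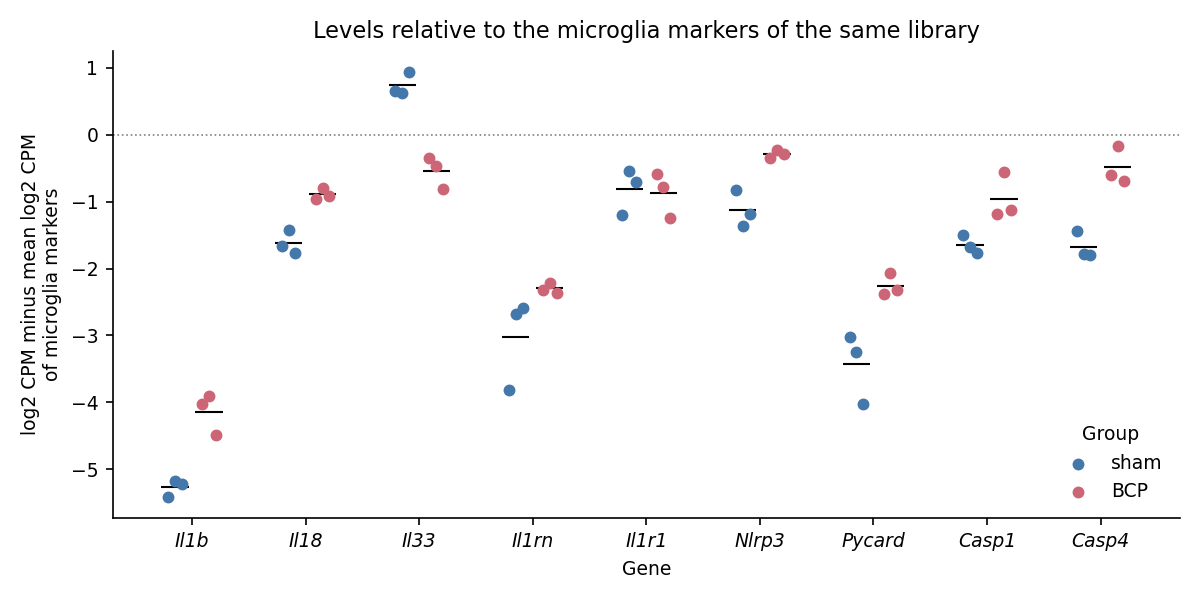
Log2 CPM of the 9 genes tested minus the mean log2 CPM of 16 microglia markers of the same library, in 3 sham (blue) and 3 BCP (red) libraries with group means as black lines. BCP points lie above sham points for 7 genes, overlap for Il1r1 (difference -0.06) and lie below for Il33.

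Among the 3 genes whose profile over the 6 libraries was most like that of Casp4, by the Euclidean distance between log2 CPM profiles centered on the sham mean, were Pik3ap1 (0.272), a signaling adaptor of immune cells, and Icam1 (0.291), an adhesion molecule. For Il1b they were Lacc1 (0.249), Il15ra (0.323) and Fcer1g (0.341), the last a signaling chain of Fc receptors. For Casp1 they were Mcm3 (0.139), a subunit of the replicative helicase, Samhd1 (0.198), which breaks down nucleotides, and Tpx2 (0.279), a spindle protein. The genes named had log2 fold changes of 1.84 to 2.49. Profiles over 6 libraries in 2 groups are set mostly by the group difference, so the likeness is a description.

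Other genes of the pathway were taken from 6 lists of 101 genes, of which 96 were found and 75 tested. Of these 30 were up-regulated and none was down-regulated by edgeR or DESeq2, although 1 was lower at an adjusted p under 0.05 by less than 2-fold. The median log2 fold change was 0.72, beside -0.01 over all genes tested. With no fold threshold 46 were higher and 1 lower, beside 2352 and 1805 of all 14908 genes tested. The filter could by itself favor genes that are high in BCP only. Of the 65 pathway genes over the filter in every sham library 23 were up-regulated, beside the 4.45% of all such genes.

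**Figure D4:**
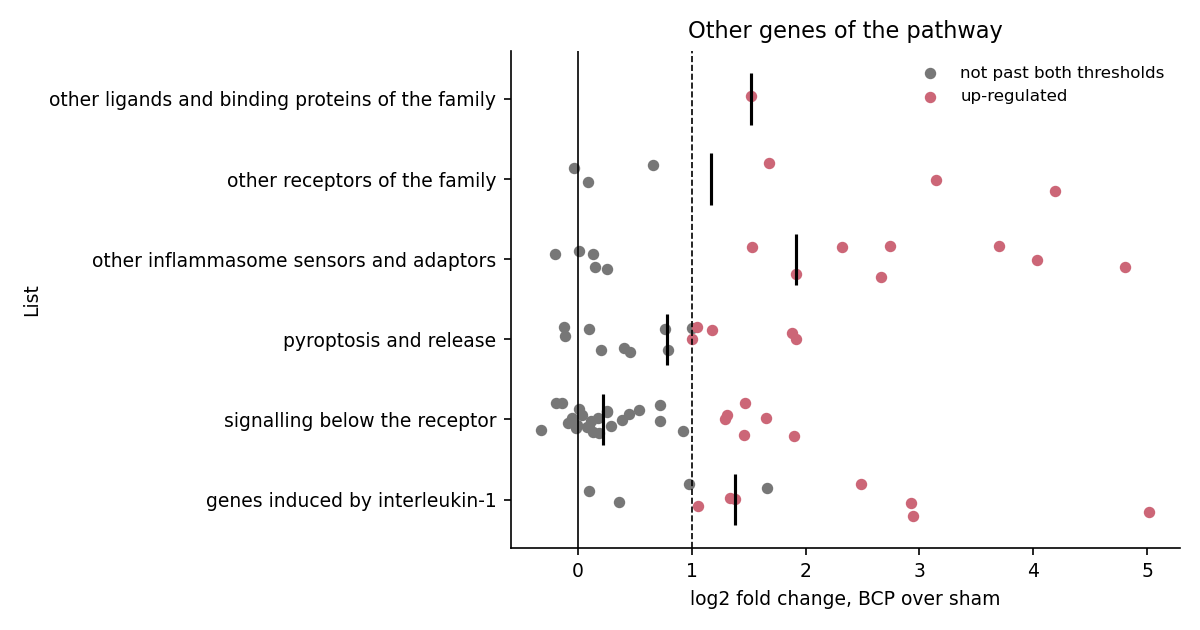
Log2 fold change (BCP over sham) of the 75 pathway genes tested with edgeR, by list, with up-regulated genes in red, other genes in gray, a black bar at the median of each list and a dashed line at a 2-fold change. The list of sensors and adaptors reaches from -0.20 (Nlrx1) to 4.81 (Nlrc3), and 6 of 30 signaling genes are red.

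Of the 6 other ligands and binding proteins 1 was tested. Il18bp, the soluble decoy that neutralizes interleukin-18, went from 4.07 ± 0.229 to 11.6 ± 3.86 CPM (SD, n = 3 each), a log2 fold change of 1.52 (SE 0.22, edgeR, adjusted p = 4.92e-05). Its BCP libraries were unequal, at 97, 221 and 143 counts. The interleukin-36 cytokines Il36a and Il36g, their antagonist Il36rn and Il1f10 had no count in any library, and Il36b had at most 5 counts. A 3-count floor in the smallest library leaves very low levels undetected.

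Of 6 other receptors tested 3 were up-regulated, and of the 4 over the filter in every sham library 1 was. Both chains of the interleukin-18 receptor were among them. Il18r1 had 0, 0 and 3 counts in sham and 13, 26 and 18 in BCP, and passed the filter only through the BCP libraries (log2 fold change 4.19, SE 0.67, adjusted p = 7.56e-05). Without sham replicate 3 its sham libraries are at 0 and the fitted value of 7.28 is no measure of size. Il18rap had 3, 10 and 14 counts in sham and 56, 67 and 101 in BCP (log2 fold change 3.15, SE 0.35, adjusted p = 1.32e-06). It had 1 sham library over the filter and so also passed it through the BCP libraries.

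Il1rl1, the receptor of interleukin-33, had 16, 16 and 21 counts in sham and 31, 63 and 65 in BCP (log2 fold change 1.68, SE 0.29, adjusted p = 0.000171), while its ligand Il33 was at the values given above. Il1rap, the accessory chain that Il1r1 and Il1rl1 need to signal, was at 49.7 ± 3.80 and 48.5 ± 1.73 CPM (SD, n = 3 each), a log2 fold change of -0.03 (SE 0.07, adjusted p = 0.775). Sigirr, an inhibitory receptor, had a log2 fold change of 0.66 (adjusted p = 0.136). The decoy receptor Il1r2 had at most 2 counts in a library and was not tested.

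Of 13 genes tested from the hand-written list of other sensors and adaptors 8 were up-regulated. Of the 10 over the filter in every sham library 5 were. Naip6, of the family that binds bacterial flagellin or needle proteins and activates NLRC4, had the smallest p-value, at 60, 55 and 54 counts in sham and 518, 729 and 804 in BCP (log2 fold change 3.70, SE 0.14, adjusted p = 3.4e-12). Its partner Nlrc4 had a log2 fold change of 2.32 (SE 0.17, adjusted p = 2.69e-09). Nlrp1a, another inflammasome sensor, had a log2 fold change of 1.92 (SE 0.13, adjusted p = 1.18e-09), and its copy Nlrp1b was at 0 in every library. Naip and Nlrp1 genes belong to families of near-identical copies, so the share of reads given to each is uncertain.

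Mefv, which encodes the sensor pyrin, had 20, 6 and 16 counts in sham and 152, 265 and 227 in BCP (log2 fold change 4.03, SE 0.27, adjusted p = 4.54e-08). Card9, a signaling adaptor of innate receptors, had a log2 fold change of 1.53 (SE 0.18, adjusted p = 1.96e-06). The DNA sensor Aim2 (2.74), Nlrc3 (4.81) and Nlrc5 (2.66) are named because they complete the count, and Nlrc3 passed the filter only through the BCP libraries. Being on the list does not show that Nlrc3 and Nlrc5 act as inflammasome sensors. Aim2 had 1 sham library over the filter and Mefv had 2, so both also passed it through the BCP libraries. Nek7, the kinase that NLRP3 needs to assemble, was at 58.2 ± 4.2 and 58.5 ± 3.85 CPM (SD, n = 3 each), with a log2 fold change of 0.01 (SE 0.07, adjusted p = 0.947). Txnip, a partner of NLRP3 in oxidative stress, had 0.26 (adjusted p = 0.00164), a difference under the 2-fold threshold.

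Of 14 genes of pyroptosis and release tested 5 were up-regulated. Casp8, which can also cut interleukin-1β, had 41, 47 and 51 counts in sham and 143, 185 and 161 in BCP (log2 fold change 1.92, SE 0.16, adjusted p = 1.67e-08). Serpinb1a, an inhibitor of serine proteases and of inflammatory caspases, had a log2 fold change of 1.88 (SE 0.20, adjusted p = 3.84e-06) and Casp12 had 1.18 (SE 0.26, adjusted p = 0.00158). Gsdmd, the pore former cut by caspase-1 and caspase-4, had 113, 133 and 87 counts in sham and 171, 233 and 236 in BCP (log2 fold change 1.05, SE 0.16, adjusted p = 3.83e-05). Without sham replicate 3 or BCP replicate 3 it was 0.87 or 0.98 and under the fold threshold.

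P2rx7, the ATP-gated channel that triggers NLRP3, was at the threshold itself, with a log2 fold change of 1.00 (SE 0.09, adjusted p = 4.67e-08), and 6 of the alternatives put it under it, among them leaving out sham replicate 1 (0.98) or BCP replicate 2 (0.94). A further group of genes was higher at an adjusted p under 0.05 but by less than 2-fold, 6 of the 14 in all, among them Ctsb, a lysosomal protease (0.79). Gsdme, listed by its older name Dfna5, was at -0.11 (adjusted p = 0.64).

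Of 30 signaling genes below the receptor 6 were up-regulated, and the median log2 fold change was 0.23. Myd88, the adaptor that the receptor recruits, had 77, 70 and 78 counts in sham and 174, 251 and 234 in BCP (log2 fold change 1.65, SE 0.14, adjusted p = 2.88e-08). The NF-kappa-B subunits Nfkb2 (1.47) and Rel (1.29), the co-regulator Nfkbiz (1.90) and the feedback inhibitor Tnfaip3 (1.46) were up-regulated, as was Relb (1.31), which completes the 6. Irak1 (-0.01, adjusted p = 0.939), Irak2 (0.01), Traf6 (0.13) and Rela (0.19, adjusted p = 0.0631) did not pass the test. A further 8 genes were higher and 1, Peli3 (-0.19), was lower at an adjusted p under 0.05 by less than 2-fold.

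Of 20 genes found that interleukin-1 is known to induce in various cells 11 were tested, and 7 were up-regulated. The rest had too few counts to be tested. Of the 7 genes over the filter in every sham library 5 were. The chemokine Ccl2 had 2, 4 and 4 counts in sham and 102, 112 and 96 in BCP (log2 fold change 5.02, SE 0.31, adjusted p = 2.11e-10), and passed the filter only through the BCP libraries. The adhesion molecules Icam1 (2.49, adjusted p = 6.76e-07) and Vcam1 (1.06, adjusted p = 2.82e-08) rose, although Vcam1 was at 0.95, under the fold threshold, without BCP replicate 2. Socs3, a feedback inhibitor of cytokine signaling, had a log2 fold change of 2.93 (adjusted p = 2.94e-07), with 1 sham library over the filter. Ptgs2, which encodes the cyclooxygenase induced in inflammation, had 125, 113 and 102 counts in sham and 255, 338 and 228 in BCP (log2 fold change 1.38, SE 0.15, adjusted p = 6.91e-07).

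C3 (2.94) and Zc3h12a (1.34) complete the 7 up-regulated genes. The cytokines Il6 and Tnf were too low to be tested, at 0, 5 and 0 against 5, 5 and 2 counts and at 2, 3 and 1 against 7, 16 and 12 counts. With no filter, edgeR gave Tnf a log2 fold change of 2.57 (adjusted p = 0.00302) and Il6 one of 1.31 (adjusted p = 0.419). Cxcl2 had no count in any library. Lcn2 had a log2 fold change of 1.66 (SE 0.49) with an adjusted p of 0.0532, and Sod2 had 0.10 (adjusted p = 0.134). Many of these genes respond to other cytokines too, and the counts say nothing of which acted.

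Long noncoding RNAs (lncRNAs) near the genes were taken as annotated transcripts that overlap a gene or lie within 10 kb of it. There were 10, near 7 of the 10 genes, and 3 were tested. NONRATT027393.2 (chr8:2635890-2639836 in Rnor_6.0), which lies within the span of Casp4, was up-regulated, at 27, 14 and 17 counts in sham and 70, 83 and 74 in BCP (log2 fold change 2.09, SE 0.28, edgeR, adjusted p = 0.0114). Of all lncRNAs tested, 1.14% were up-regulated. The call was lost without sham replicate 2, sham replicate 3, BCP replicate 2 or BCP replicate 3, and in a test against a fold change of 2.

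NONRATT027675.2, within the span of Il18, had 8, 14 and 4 counts in sham and 22, 33 and 46 in BCP (log2 fold change 2.07, SE 0.46), but an adjusted p of 0.0736. NONRATT001665.2, within the span of Il33, had 25, 8 and 0 counts in sham and 51, 12 and 0 in BCP (log2 fold change 1.08, SE 1.67, adjusted p = 0.863), and differed more within the groups than between them. The library kit keeps strand, but whether the counting used it is not given in the sources used here. Reads of these transcripts and of the genes they overlap can therefore not be told apart.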

How the data were processed

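Total RNA depleted of ribosomal RNA was sequenced from 3 sham and 3 BCP samples, grouped by their labels. Reads were cleaned by the authors with Seqtk, aligned by HISAT2 2.0.4 (Rnor_6.0) and quantified by StringTie 1.3.0. The deposited tables hold raw counts and FPKM for every gene and lncRNA. Which counter was used, whether it used strand and how it treated reads with several locations are not given in the sources used here. The FPKM served only for comparing levels between genes, and functional annotation columns were not used.

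Counts were tested with edgeR 4.0.16 (R 4.3.3): filterByExpr with a minimum count of 10, TMM factors (0.982 to 1.02 for genes), a robust quasi-likelihood fit on condition and Benjamini-Hochberg adjustment over all rows tested. Genes (14908 tested, 5737 with counts left out) and lncRNAs (12157 tested) were fitted separately, with calls at an adjusted p under 0.05 and a fold change over 2, as in the study's methods. SE is the log2 fold change over the root of F. The code was tested on simulated counts with 200 changed features, of which edgeR recovered 98.5% of genes and 80% of lncRNAs. It also called 6 unchanged genes and 17 unchanged lncRNAs (DESeq2 called 3 and 56). The simulated features had passed the filter and their changes were well over 2-fold. These shares therefore do not hold for changes near 2-fold. lncRNA counts summed to 1946315 to 2531114 in a library. Floors cover counting error only.

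The genes, gene lists and tests were chosen with earlier results of these data known. Named are all 10 genes, up to 5 up-regulated genes of each list with the smallest p and those a statement turns on, which were chosen after their values were seen, markers at or near 0, and the 3 genes nearest in profile to Casp4, Il1b and Casp1. A few genes selected in this way are not reported here. The marker and pathway lists were written by hand. Alternatives were DESeq2 1.42.0, other filters, scalings and fold thresholds, the replicate number as a block and leaving out each library. Python 3.11.15 and matplotlib 3.10.9 made the plots.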

Additional observations from a re-analysis of the deposited data

How the results depend on the processing

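Of the 10 genes, 7 to 9 were up-regulated under every alternative and none was down-regulated. The 7 were reached with a test against a fold change of 2, where Il1r1 was lost, and with at least 10 counts in every library, where Il1b could not be tested. Leaving out each library gave 8 to 9. Il33 had log2 fold changes of 0.00 with library size only and 0.02 without BCP replicate 3, and -0.12 to 0.02 over the libraries left out. The number of pathway genes up-regulated was 46 and of those down-regulated 1 with no fold threshold, and 19 were up-regulated against a fold change of 2. Over all genes, 2352 rose and 1805 fell with no fold threshold, and 548 and 0 against a fold change of 2. The 16 down-regulated genes were 37 with no filter, 6 with at least 10 counts in every library, 10 with DESeq2 and 16 to 33 with a library left out. DESeq2 called 2 lncRNAs near the genes, the test against a fold change of 2 called 0, and leaving out a library gave 0 to 1. The log2 ratio of Il1b to Il1rn differed by 0.45 to 1.02 with a library left out and by 0.57 with a pseudocount of 1. Of 489 values of 33 single genes under the alternatives, 470 stayed on the same side of the thresholds, 17 lost the call and the 2 of Il33 changed sign. The causes were not tested. Genes under about 10 counts in a library, such as Il1a, are limited by depth.

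Samples share only a replicate number between groups. The correlation of the deviations of same-numbered gene libraries was -0.105, 0.0439 and -0.0353, and not every sample correlated best with its own number. With the replicate block, 8 of the 10 genes, 29 pathway genes and 907 genes were up-regulated, 16 were down-regulated, 0 lncRNAs near the genes were called, and the ratio difference was 0.67.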
